A study of Mus musculus with 12 samples.

Results

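The livers of neonatal mice held a small population of resting B cells with transcripts of Ighd, the constant region gene of the heavy chain of IgD. The cells were chosen by their raw counts of unique molecular identifiers (UMIs, one per captured transcript). A member held 500 to 50000 UMIs with at most 20% from mitochondrial genes, at least 1 Ighd UMI and at least 2 UMIs summed over Ms4a1, which encodes CD20, and Cd79a and Cd79b, the signaling chains of the B cell receptor. It held no UMI of Rag1, Rag2, Igll1 or Vpreb1, which mark precursors, of Top2a or Mki67, which mark cycling cells, or of Cd3e, Lyz2, Stab2 or C1qa, which mark T, myeloid, endothelial and macrophage cells. These limits left 4644 Ighd-positive B cells of 202557 cells within the UMI and mitochondrial limits (kept cells), or 2.29%. Ighd lies at chr12:113406604-113416324 next to Ighm at chr12:113418558-113422730, both on the minus strand of GRCm38. The values of these 14 genes chose the members and are given as a description only.

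The newborn liver still makes blood cells, B cells among them. A B cell precursor rearranges its heavy chain gene, pairs the product with a surrogate light chain, divides, and then rearranges a kappa or lambda light chain gene. The immature B cell carries IgM, and on maturing to a naive B cell it also makes IgD, by alternative processing of one heavy chain transcript. Maturing cells gain MHC class II, the IgE receptor CD23 and homing receptors, and lose precursor genes.

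All 12 animals were C57BL6/J pups killed on postnatal day 11. The 6 control mice were handled alike with needle sticks that drew no blood, and the 6 mice with phlebotomy-induced anemia (PIA) lost 20 µL blood per g body weight from the facial vein on alternate days. Pups of each litter had been randomised to the groups. Each mouse gave 1 droplet 3′ library of dissociated whole liver, so cells of the tissue and cells of the blood in it were not separated, and all libraries carry one batch date.

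Control mice 1 to 6 gave 322, 450, 378, 430, 384 and 345 members and anemic mice 1 to 6 gave 394, 331, 496, 393, 453 and 268. Libraries held 46252100 to 74545900 UMIs, and the median member held 1265 to 1592 UMIs in control and 1352.5 to 1817 UMIs in anemic mice. Any pair of libraries shared 56 to 122 barcodes, at most 0.691%, with 0 or 1 of them a member in both. Xist UMIs exceeded those of Y-linked genes in 4 of 6 control and 2 of 6 anemic mice, so sex was not balanced.

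Genes that the rule did not use marked the members as B cells. Levels are CPM, a gene's UMIs divided by all member UMIs of a mouse and scaled to a common total, here as mean ± SD of 12 mice. Ighm, the IgM heavy chain, stood at 2776 ± 438 CPM with a UMI in 94.0% of members, and the kappa chain Igkc at 5834 ± 1341 CPM with a UMI in 89.9%. Cd3d, part of the T cell receptor complex, stood at 1.73 ± 2.56 CPM in members and 442 ± 53.8 CPM in T cells. The T cells were chosen in part by Cd3d and the members by lack of Cd3e, so this contrast is a description only. Jchain, which joins antibody units in secreting cells, had a UMI in 9 members.

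Along the B lineage the members lay at the mature end by most genes shown. This is a description because the cell sets were defined by related genes. Fcer2a, which encodes CD23, averaged 89.3 ± 29.6 CPM in members, 33.1 ± 12.5 CPM in Ighd-negative resting B cells (the same rule without Ighd) and 1.69 ± 2.73 CPM in Rag-positive resting pre-B cells. The pre-B cells held at least 1 UMI of Rag1 or Rag2, at least 2 of Cd79a and Cd79b, and none of Ighd. They held no cycling or other-cell marker of the rule but could hold Igll1 or Vpreb1. Cd74, the invariant chain of MHC class II, averaged 21795 ± 3145, 14756 ± 3084 and 1781 ± 388 CPM, and the adaptor gene Bank1 1069 ± 178, 739 ± 164 and 120.0 ± 33.97 CPM. Precursor genes had the opposite order. Vpreb3, a partner of the early receptor, averaged 386 ± 98.3, 750.2 ± 137 and 1602 ± 159 CPM, and the progenitor transcription factor Myb 88.5 ± 31.9, 158 ± 31.7 and 371 ± 49.2 CPM. The receptor gene Tnfrsf13c followed neither order and was highest in the Ighd-negative cells, with 188.3 ± 24.95, 219.7 ± 24.94 and 155.4 ± 30.27 CPM.

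At this depth most members showed no UMI of a late marker. Fcer2a was seen in 11.4% of members and the complement receptor Cr2 in 2.02%. The early markers Cd24a and Cd93 were seen in 35.2% and 3.55%. Of genes used to mark B-1 cells, Cd5 was seen in 1.12%, Zbtb32 in 0.495% and Bhlhe41 in 12.1%, and Ighg1 and Ighg2c, constant regions of switched antibodies, had no UMI in any member. The naive state is thus a label drawn from RNA, and no protein was measured.

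**Figure D1:**
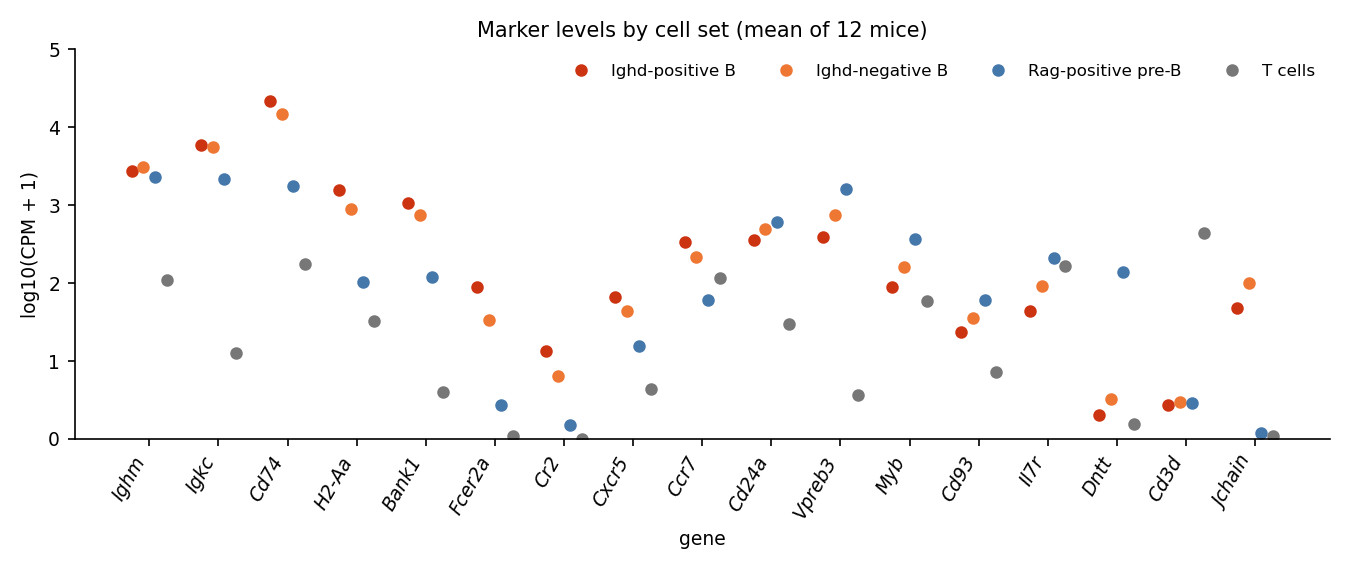
Levels of 17 genes in 4 cell sets, as log10(CPM + 1) of the mean over 12 mice, with a point for each gene and cell set. Fcer2a and Cd74 are highest in Ighd-positive B cells and Vpreb3 and Myb in pre-B cells, and the Jchain point of the Ighd-positive cells rests almost wholly on 1 cell.

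The genes that chose the members were at like levels in both groups. Ighd stood at 757 ± 57.9 and 751 ± 72.3 CPM in control and anemic members (SD, n = 6 each), Ms4a1 at 720.5 ± 59.8 and 778 ± 85.8 CPM, Cd79a at 1352 ± 113 and 1291 ± 79.7 CPM and Cd79b at 1547 ± 221 and 1406 ± 105 CPM. Of the members 3532 held exactly 1 Ighd UMI, 825 held 2 and 287 held more. The 431 members just inside the limits, with 1 Ighd and 2 B cell marker UMIs, had 2157 CPM Ighm and 973 CPM Bank1 over their summed UMIs, and the 297 cells just outside, with 1 B cell marker UMI, had 1884 and 991 CPM.

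Ighd UMIs were rare in cells that should lack the gene. They occurred in 28 of 5620 T cells, or 0.498% (95% exact binomial interval 0.331 to 0.719%, counting error only), at median depths of 1714 to 2505.5 UMIs. Cells with at least 3 C1qa UMIs, a macrophage marker, were deeper, with medians of 5391.5 to 10009.5 UMIs, and 168 of 18591 of them held one, or 0.904% (0.773 to 1.05%). The T cells had been chosen without UMIs of Ms4a1, Cd79a or Cd79b, which leaves out some with stray B cell RNA. The cells chosen by C1qa had no such limit. Among resting B cells, 4644 of 22623 held one, or 20.5%, although their Ighd-negative cells had median depths of only 1199 to 1637 UMIs.

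The first question was whether PIA changed the share of Ighd-positive B cells. Among kept cells it was 1.94, 2.46 and 2.82% in controls and 1.74, 2.24 and 2.55% with PIA (lowest, median and highest). The groups overlapped, with 2.42 ± 0.340% in controls against 2.18 ± 0.327% with PIA (SD, n = 6 each; two-sided Mann-Whitney exact p = 0.310, adjusted 0.413 by Benjamini-Hochberg over 4 measures). Among cells with under 25% globin UMIs, a limit set to leave out erythroid cells, it was 2.58 ± 0.306% in controls against 2.78 ± 0.566% with PIA (exact p = 0.485, adjusted 0.485).

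Within the B lineage their share was higher in PIA. B-lineage cells, defined by the same B cell markers and no other-cell marker, made up 22.7 ± 2.62% of kept cells in controls against 13.97 ± 2.86% with PIA, and the highest anemic mouse, at 16.5%, lay below the lowest control, at 18.9%. Of these, Ighd-positive B cells made up 9.43, 10.2 and 12.3% in controls and 11.1, 15.6 and 21.9% with PIA (lowest, median and highest). In 5 of 6 anemic mice the share exceeded that of every control. The means were 10.6 ± 1.10% in controls against 16.2 ± 4.15% with PIA (two-sided Mann-Whitney exact p = 0.00866, adjusted 0.0303, where 6 against 6 mice cannot go below 0.00216). Leaving out control mouse 3 or 5 or anemic mouse 1, 2, 3 or 5 raised the adjusted exact p to 0.0606, with differences of 4.45 to 5.97 percentage points. Kept cells of at least 1000 UMIs were also thinned to 1000 UMIs, with shallower cells left out. The shares were then 8.36 ± 0.801% in controls against 12.3 ± 3.29% with PIA (exact p = 0.0152, adjusted 0.0303).

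The other stages are given without a test. Each B-lineage cell was counted once, in the first that applied of cycling, surrogate light chain, Rag, Ighd-negative and member. Cycling B-lineage cells made up 6.75 ± 1.14% of kept cells in controls against 3.41 ± 1.28% with PIA, below every control in 6 of 6. Cells with Rag UMIs made up 1.31 ± 0.214% of kept cells in controls against 0.678 ± 0.317% with PIA, below every control in 5 of 6. Ighd-negative resting B cells made up 11.1 ± 1.33% of kept cells in controls against 6.86 ± 1.33% with PIA, below every control in 6 of 6. Cells with surrogate light chain UMIs spread more widely and made up 1.16 ± 0.161% of kept cells in controls against 0.845 ± 0.393% with PIA, below every control in 3 of 6 and above every control in 1. As a share of B-lineage cells they made up 5.12 ± 0.664% in controls against 5.78 ± 1.86% with PIA. On that scale cycling cells made up 29.6 ± 2.80% against 23.7 ± 6.19% and Rag cells 5.78 ± 0.831% against 4.66 ± 1.60%. Ighd-negative resting B cells made up 48.9 ± 2.35% against 49.6 ± 6.19% of B-lineage cells. As a share of kept cells, the members themselves lay below every control in 2 of 6 anemic mice. Shares do not tell a gain of one cell set from a loss of another.

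Ighd itself could be compared in resting B cells chosen without it, a measure added after the values were seen. It uses the gene that chose the members and in part restates their share, so it is a description with no test. These cells held 35.6, 45.5, 33.6, 53.9, 49.0 and 49.3 Ighd UMIs per 1000 Ighm UMIs in control mice 1 to 6 and 80.4, 80.4, 70.2, 59.0, 103 and 55.3 in anemic mice 1 to 6. All 6 anemic mice lay above all 6 controls. The means were 44.5 ± 8.11 and 74.7 ± 17.3 (SD, n = 6 each). Ighd alone stood at 147 ± 12.4 and 196 ± 42.4 CPM in these cells, with 4 of 6 anemic mice above every control. Ighm stood at 3405 ± 687 and 2628 ± 126 CPM. These cells include the Ighd-negative ones, whose Jchain, a gene of antibody-secreting cells, averaged 195 ± 185 CPM without PIA and 1.59 ± 2.12 CPM with it. A member of control mouse 5 with 338 Jchain UMIs held 758 Ighm UMIs. Whether antibody-secreting cells raised Ighm and so lowered the control ratios was not tested.

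**Figure D2:**
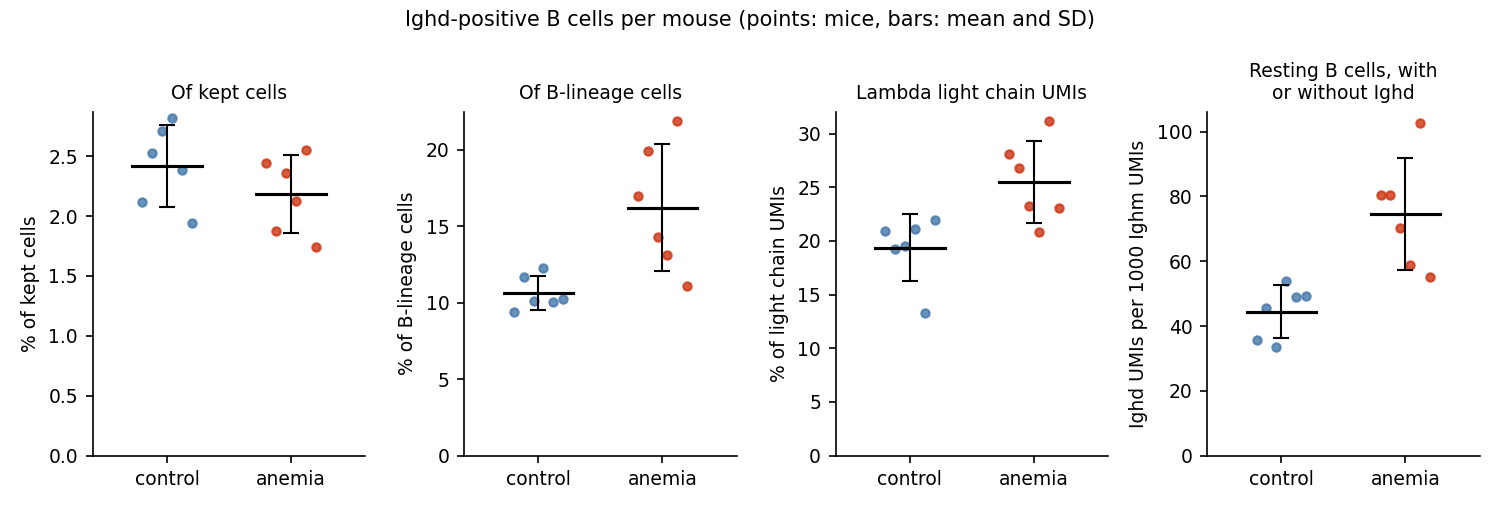
Per-mouse measures in 6 control and 6 anemic mice, with points for mice and bars for mean and SD. The panels give Ighd-positive B cells as a percentage of kept cells and of B-lineage cells, and the lambda percentage of their light chain UMIs. Another panel gives Ighd UMIs per 1000 Ighm UMIs in all resting B cells. There the anemic mice start at 55.3 and the controls end at 53.9. Whether antibody-secreting cells carried part of these Ighm UMIs was not tested.

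The light chains differed as well. Of the kappa and lambda constant region UMIs of the members, lambda UMIs (Iglc1, Iglc2 and Iglc3) made up 13.3, 20.2 and 21.9% in controls and 20.9, 25.03 and 31.2% with PIA (lowest, median and highest). The means were 19.4 ± 3.12% in controls against 25.5 ± 3.82% with PIA (two-sided Mann-Whitney exact p = 0.0152, adjusted 0.0303), and 5 of 6 anemic mice exceeded every control. Without control mouse 2, 3 or 5 or anemic mouse 1, 2, 3, 5 or 6 the adjusted exact p was 0.0606. The lowest control, mouse 5, held 1 member of 6318 UMIs with 338 of that mouse's 340 Jchain UMIs and 2351 of its 5972 Igkc UMIs. With members above 3 times their mouse's median UMI count left out (98 large members, that cell included), the shares were 20.2 ± 1.23% in controls against 25.3 ± 3.98% with PIA (exact p = 0.00866, adjusted 0.0173).

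Counted by cells, 786 members had more lambda than kappa UMIs and 3547 the reverse, and the lambda cells made up 16.1 ± 1.60% in controls against 20.01 ± 2.53% with PIA. Both chains had a UMI in 63.2% of members, 57.4 ± 2.92% in controls and 68.5 ± 7.92% with PIA. Anemic mouse 5, with the highest lambda percentage of UMIs, also had the highest share of cells with both, 81.9%. This share moved with the lambda result, and the part of free RNA in either was not tested. No single light chain gene passed the test across genes. Iglc1 stood at 484 ± 106 and 624 ± 124 CPM (log2 fold change 0.40 ± 0.14, adjusted p = 0.208 by edgeR), Iglc2 at 649 ± 55.4 and 707 ± 213 CPM (0.16 ± 0.15, adjusted p = 0.721) and Igkc at 6464 ± 1708 and 5205 ± 293 CPM (-0.28 ± 0.13, adjusted p = 0.354). The lambda genes are close copies and may share reads.

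The second question was which genes changed within the members. UMIs were summed per mouse, and 8827 genes averaging 5 or more UMIs per mouse were tested with edgeR's quasi-likelihood test. At a Benjamini-Hochberg adjusted p under 0.05, 42 genes were called, 0.476% of those tested, 26 higher in PIA (0.295%) and 16 lower (0.181%). The median log2 fold change of all genes tested was 0.00, and 50.4% were positive. The CPM values of the groups did not overlap in 89 genes, 1.01%, of which 22 were called. Single mice moved the count, to 10 without control mouse 1, 5 without control 4 and 15 without control 5, and to 86 without anemic mouse 6. Cyp2e1, Meg3 and Tuba1c were called in all 12 fits that left out a mouse, though most control Meg3 UMIs lay in the large members. With Y-linked expression as a covariate 27 genes were called, 22 of them among the 42.

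**Figure D3:**
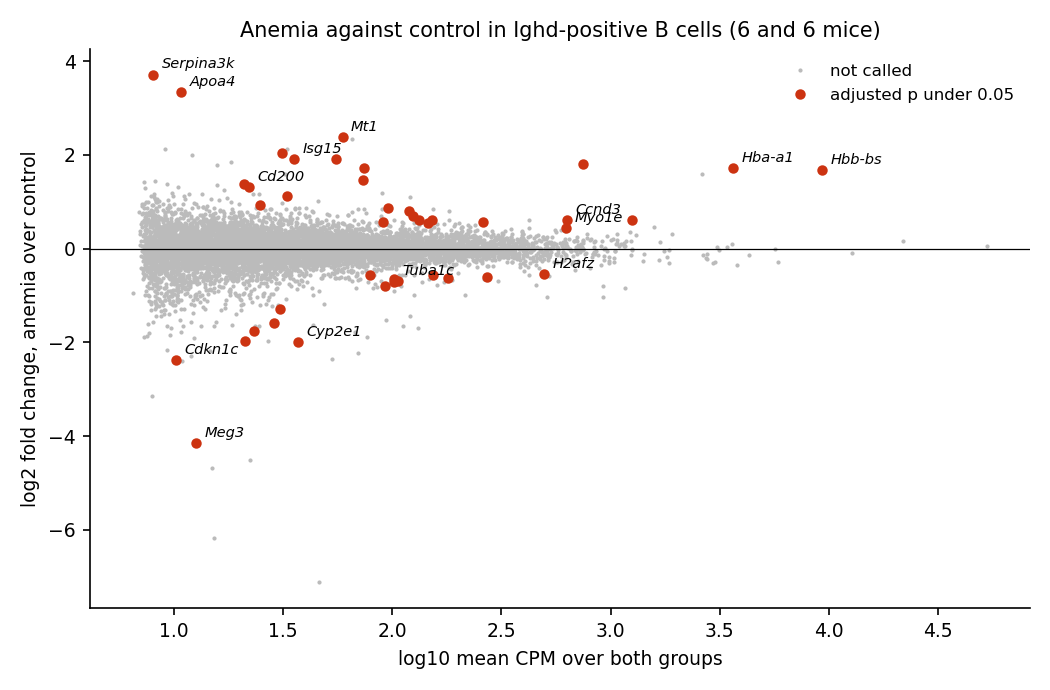
Log2 fold change of anemia over control against log10 mean CPM for 8827 genes in Ighd-positive B cells of 6 and 6 mice, with a point for each gene and called genes in color. The 26 called genes above 0 reach 3.71 for Serpina3k, and the 16 below it reach -4.16 for Meg3.

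Genes that rose without overlap are given first, in no functional group. Ccnd3, the D-type cyclin used by B cell precursors, had 423, 522 and 554 CPM in control and 617, 701 and 977 CPM in anemic members. The groups did not overlap (log2 fold change 0.61 ± 0.12, adjusted p = 0.0213, edgeR here and in the following gene values, which give the SE after ±). Apobec3, a restriction factor against retroviruses, had 182, 209 and 234 CPM in control and 242, 315 and 366 CPM in anemic members, again without overlap (0.57 ± 0.11, adjusted p = 0.0213).

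Jak2, a kinase of cytokine receptors, had 77.8, 122 and 155 CPM in control and 159.8, 179.9 and 205 CPM in anemic members (0.61 ± 0.13, adjusted p = 0.0303). Hvcn1, a voltage-gated proton channel of B cells, had 84.9, 94.9 and 119 CPM in control and 124, 142 and 219.7 CPM in anemic members (0.68 ± 0.14, adjusted p = 0.0351). Neither gene overlapped between the groups, and the highest Hvcn1 value, of anemic mouse 5, stood apart. Sesn1, a stress gene of the p53 pathway, rose from 120.4 ± 14.2 to 172 ± 26.95 CPM (0.55 ± 0.12, adjusted p = 0.0351). Cd200, an inhibitory surface protein, stood at 12.96 ± 4.02 and 31.4 ± 8.83 CPM (1.31 ± 0.26, adjusted p = 0.0253), with a UMI in 3.49% of members. The motor protein gene Myo5a stood at 74.8 ± 7.57 and 107 ± 17.7 CPM (0.56 ± 0.12, adjusted p = 0.0464). All 3 were without overlap.

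These calls differed in how they held. Ccnd3 and Apobec3 lost theirs without control mouse 1 or 4 (highest adjusted p 0.0683), Jak2 also without control 5 or anemic mouse 3, and Cd200 without control 1, 4 or 5 or anemic mouse 5. Hvcn1 was called in 7, Sesn1 in 4 and Myo5a in 2 of 12 such fits. With Y-linked expression as a covariate the adjusted p was 0.0470 for Apobec3, 0.0538 for Ccnd3, 0.0894 for Jak2, 0.103 for each of Hvcn1 and Sesn1, 0.0538 for Cd200 and 0.129 for Myo5a. Members at or below their mouse's median share of hepatocyte and globin UMIs were also fitted alone, with 7349 genes tested. The part of lower depth in calls lost in this smaller subset was not tested. In it the log2 fold change was 0.63 (adjusted p = 0.0234) for Apobec3, 0.56 (adjusted p = 0.0821) for Ccnd3, 0.62 (adjusted p = 0.115) for Jak2 and 1.10 (adjusted p = 0.170) for Cd200. Hvcn1, Sesn1 and Myo5a kept their calls there. All of these genes kept an adjusted p under 0.05 without the large members, the highest being 0.0465 for Myo5a.

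Further genes were called but overlapped between groups, and are named after their values were seen. The motor protein gene Myo1e stood at 539.9 ± 27.3 and 709.9 ± 104 CPM (0.43 ± 0.09, adjusted p = 0.0421), the sorting receptor Sorl1 at 88.8 ± 13.4 and 150.2 ± 43.99 CPM (0.81 ± 0.17, adjusted p = 0.0351) and the non-coding RNA Pvt1 at 106 ± 21.6 and 160.3 ± 22.7 CPM (0.60 ± 0.13, adjusted p = 0.0392). Gm10076, which resembles a ribosomal protein gene and may share its reads, stood at 67.9 ± 14.2 and 123 ± 28.9 CPM (0.87 ± 0.16, adjusted p = 0.0213). Ube2l6, a conjugating enzyme for Isg15, and Sdhaf1, an assembly factor of respiratory complex II, did not overlap, with 11.7 ± 6.18 and 30.5 ± 2.95 CPM (1.38 ± 0.26, adjusted p = 0.0213) and 17.4 ± 2.69 and 32.3 ± 5.25 CPM (0.93 ± 0.20, adjusted p = 0.0351).

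Several of these calls were lost when a mouse was left out. Of 12 fits that left out a mouse, Myo1e was called in 1, Sdhaf1 and Pvt1 each in 4, Sorl1 in 5, and Gm10076 and Ube2l6 each in 10. With Y-linked expression as a covariate the adjusted p was 0.103 for each of Myo1e, Sdhaf1 and Pvt1 and 0.128 for Sorl1. In the members with less hepatocyte and globin RNA Myo1e had 0.40 (adjusted p = 0.101), Sdhaf1 1.01 (adjusted p = 0.107) and Pvt1 0.71 (adjusted p = 0.0821). Without the large members the log2 fold change was 0.88 (adjusted p = 0.213) for Ube2l6 and 0.86 (adjusted p = 0.0553) for Sdhaf1.

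Of the genes that fell, Tuba1c, an alpha tubulin, had 106, 128 and 147 CPM in control and 65.3, 73.98 and 90.6 CPM in anemic members (-0.70 ± 0.11, adjusted p = 0.0188). Its close copy Tuba1a, which may share reads with it, had 91.4, 114 and 154 CPM in control and 50.7, 65.7 and 86.6 CPM in anemic members (-0.80 ± 0.17, adjusted p = 0.0351). Neither overlapped between the groups. H2afz, a histone variant abundant in dividing cells, had 519, 577 and 700.1 CPM in control and 304, 392 and 497 CPM in anemic members (-0.55 ± 0.11, adjusted p = 0.0226).

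Marcksl1, an actin-regulating membrane protein, had 169.7, 224 and 268 CPM in control and 116, 143 and 169 CPM in anemic members (-0.62 ± 0.12, adjusted p = 0.0213), so the groups touched without overlapping. Dstn, an actin-severing protein, stood at 95.2 ± 14.4 and 63.1 ± 7.28 CPM (-0.57 ± 0.12, adjusted p = 0.0436), S100a11, a calcium-binding protein, at 131 ± 16.5 and 81.1 ± 18.9 CPM (-0.69 ± 0.14, adjusted p = 0.0257) and Oser1, an oxidative stress gene, at 185 ± 23.99 and 123 ± 15.4 CPM (-0.56 ± 0.11, adjusted p = 0.0213), none with overlap. Vim, the intermediate filament vimentin, and the transcription factor Klf4 fell with 1 overlapping anemic mouse each, at 330.5 ± 51.6 and 212 ± 49.6 CPM (-0.62 ± 0.13, adjusted p = 0.0351) and 125 ± 23.1 and 77.8 ± 12.2 CPM (-0.66 ± 0.14, adjusted p = 0.0351). Tuba1c kept its call in the members with less hepatocyte and globin RNA, with -0.75 (adjusted p = 0.0250), while Marcksl1 had -0.61 (adjusted p = 0.0758) and H2afz -0.53 (adjusted p = 0.0953).

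The lower calls also differed in how they held. Dstn was called in 2 of the 12 fits that left out a mouse, Vim and Klf4 each in 4, Tuba1a in 5, S100a11 in 6, H2afz in 8, Marcksl1 in 9 and Oser1 in 10. With Y-linked expression as a covariate the adjusted p was 0.128 for Dstn, 0.103 for Klf4, 0.0729 for Vim, 0.0684 for S100a11 and 0.0668 for H2afz. Without the large members Dstn had -0.42 (adjusted p = 0.0994) and Tuba1a -0.65 (adjusted p = 0.0559). In the members with less hepatocyte and globin RNA Dstn had -0.70 (adjusted p = 0.166), Klf4 -0.47 (adjusted p = 0.293) and Oser1 -0.49 (adjusted p = 0.108).

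**Figure D4:**
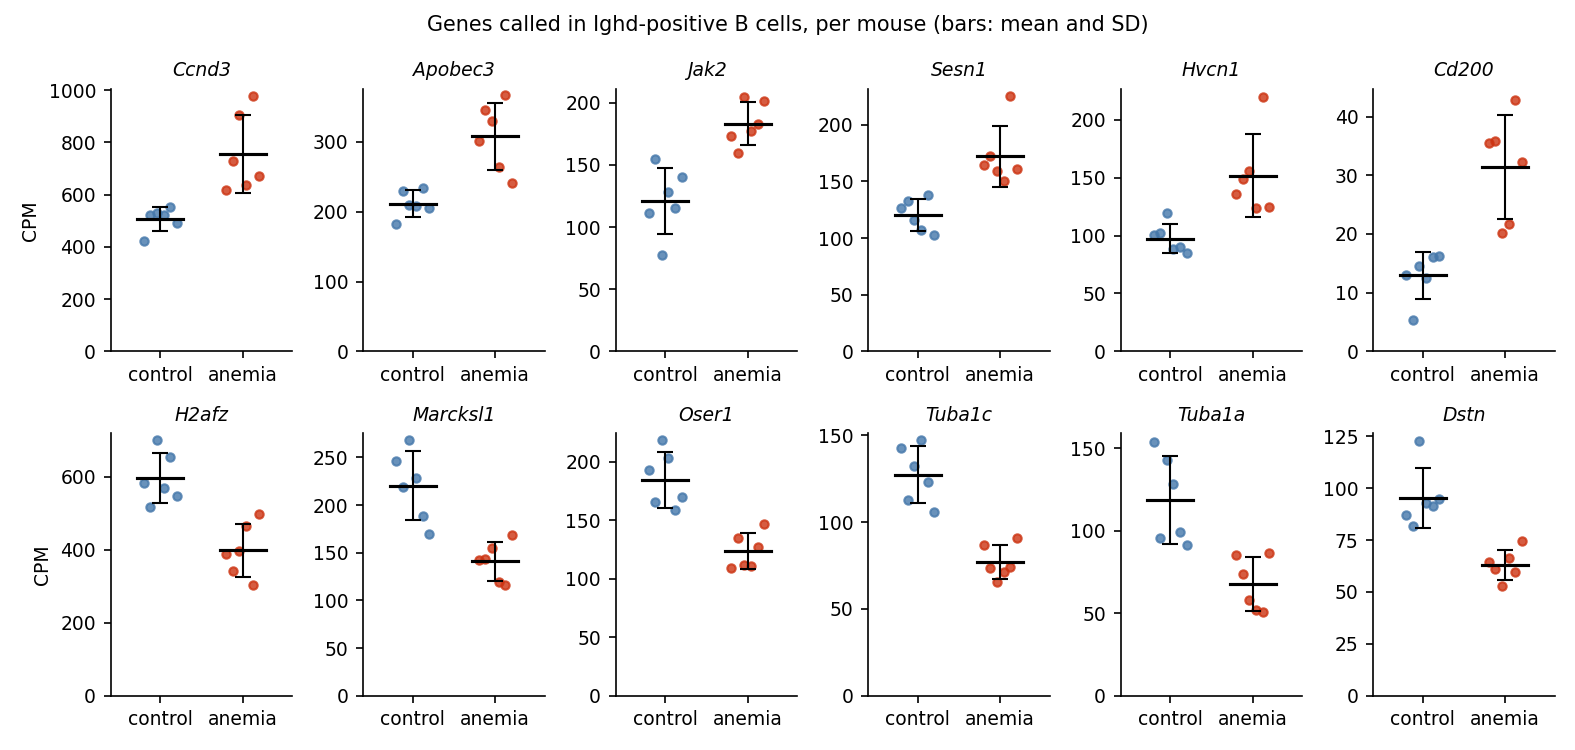
CPM of 12 called genes in the Ighd-positive B cells of 6 control and 6 anemic mice, with points for mice and bars for mean and SD. The first 6 genes are higher in PIA and the last 6 lower, with no overlap in any panel; Marcksl1 comes closest, with 169 CPM in an anemic and 169.7 CPM in a control mouse.

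A few large members carried part of the counts. The 98 members above 3 times their mouse's median, 5 to 13 per mouse, held 7.32% of all member UMIs, and the rule cannot remove 2 B cells in 1 droplet. Meg3, an imprinted non-coding RNA, had 5.43, 24.1 and 40.8 CPM in control and 0, 1.26 and 3.59 CPM in anemic members (-4.16 ± 0.59, adjusted p = 0.00673). Of its 96 UMIs in control members 80 lay in large members. Without the large members Meg3 had 16 and 4 UMIs in control and anemic members, too few to test. Cald1, an actin-binding protein of stromal cells, stood at 42.5 ± 15.3 and 14.8 ± 10.1 CPM (-1.58 ± 0.34, adjusted p = 0.0392), 108 of its 167 control UMIs lay in large members, and without them its log2 fold change was -0.80 (adjusted p = 0.359). Jchain had 346 and 2 UMIs in control and anemic members, nearly all in the cell of control mouse 5 (-7.12 ± 1.94, adjusted p = 0.116). Without the large members 75 of 8466 genes were called, 27 higher and 48 lower, and 31 of these were among the 42.

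RNA of erythroid cells was present in the members and higher in PIA. Of 14 erythroid genes 10 were tested, all were positive, 6 rose and the median was 1.71. Among the called genes were the globins Hbb-bs, Hbb-bt and Hba-a1, whose copies may share reads, and the heme enzyme Alas2. The list summed to 1856 to 15491 CPM in control and 14147 to 32640.5 CPM in anemic mice. Hbb-bs had 1054, 3709 and 8687 CPM in control and 8049.9, 14478 and 18502 CPM in anemic members, beside 12821 and 55316 CPM over all kept cells of control and anemic mice. Of the 63880 Hbb-bs UMIs in anemic members, 46527 lay outside the large members, and with the large members left out the globins did not pass the test, with 1.21 (adjusted p = 0.0651) for Hbb-bs, 1.25 (adjusted p = 0.0613) for Hbb-bt and 1.25 (adjusted p = 0.0767) for Hba-a1. Hbb-bs was called in 7 and Hba-a1 in 4 of 12 fits that left out a mouse. Fech, the last enzyme of heme synthesis, had 20.8 ± 6.14 and 45.4 ± 11.1 CPM (1.13 ± 0.22, adjusted p = 0.0213), and in the members with less hepatocyte and globin RNA its log2 fold change was 0.03 (adjusted p = 0.997). Without the large members Fech had 0.88 (adjusted p = 0.0926), and it also lost the call without control mouse 1, 4 or 5. The part of free or erythroid RNA in these values was not tested.

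Hepatocyte genes moved both ways. Of 25 on the list 24 were tested, 2 rose, 1 fell, 21 were negative and the median was -0.56, and the list summed to 7747 to 11105 CPM in control and 1571 to 11312 CPM in anemic mice. Cyp2e1, a cytochrome P450, had 37.5, 59.1 and 81.6 CPM in control and 1.80, 15.7 and 30.2 CPM in anemic members (-1.999 ± 0.34, adjusted p = 0.0188) and 106 and 32.02 CPM over all kept cells. Serpina3k, a protease inhibitor, had 4 and 66 UMIs in control and anemic members (3.71 ± 0.63, adjusted p = 0.0188) and 3.91 and 37.99 CPM over all kept cells. Apoc3, an apolipoprotein, stood at 40.5 ± 8.55 and 107 ± 56.4 CPM (1.47 ± 0.28, adjusted p = 0.0213). It lost the call without control mouse 1 or 4, with Y-linked expression as a covariate (adjusted p = 0.0574) and in the members with less hepatocyte and globin RNA, where it had 0.82 (adjusted p = 0.338). Those members were chosen in part by UMIs of the list that holds Apoc3. The part of hepatocyte RNA was not tested.

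Outside the list, and named after their values were seen, Apoa4 had 7 and 85 UMIs (3.34 ± 0.57, adjusted p = 0.0188), and Car3, a carbonic anhydrase, Cdkn1c, a cell cycle inhibitor, and Dnah17, a dynein, fell (-1.97 ± 0.43, adjusted p = 0.0423; -2.38 ± 0.45, adjusted p = 0.0213; -1.28 ± 0.28, adjusted p = 0.0436). Gsta3, a glutathione transferase, fell without overlap (-1.77 ± 0.35, adjusted p = 0.0226). Car3 and Dnah17 were each called in 4 of 12 fits that left out a mouse, Cdkn1c and Gsta3 lost the call without control mouse 1, 4 or 5, and Apoa4 without control 4. Dnah17 also lost it with Y-linked expression as a covariate (adjusted p = 0.128) and in the members with less hepatocyte and globin RNA, with -1.31 (adjusted p = 0.132). Among genes named for B cells by the study, Apoa1 stood at 691 ± 115 and 329 ± 226 CPM (-1.04 ± 0.32, adjusted p = 0.152) and Ttr at 1249.5 ± 175 and 601 ± 379 CPM (-1.03 ± 0.31, adjusted p = 0.143). Apoe, Apoa2, Apoc1 and Rbp4 had log2 fold changes of -0.77, -0.59, -0.40 and -0.48, and none of these 6 genes passed the test in all members. Apoa1 and Ttr passed without the large members, with -1.27 (adjusted p = 0.0209) and -1.24 (adjusted p = 0.0412). In the members with less hepatocyte and globin RNA, a subset chosen by such UMIs, Apoa1 had -1.34 (adjusted p = 0.0239), Ttr -1.45 (adjusted p = 0.0239) and Apoa2 -1.17 (adjusted p = 0.0283). In both settings all 6 genes had negative log2 fold changes.

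Several genes were too sparse to test. Fgf23, a phosphate hormone, had 0 UMIs in control members, which allows up to 0.775 CPM by 3 counts over the group, and 12 in anemic members, beside 23.05 and 192 CPM over all kept cells. Mt2 had 5 and 36 UMIs in control and anemic members, Epb42 0 and 9 UMIs, Tcf21 15 and 8 UMIs and Cd40lg 3 and 0 UMIs.

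Mt1, a metallothionein that binds zinc, had 16.3, 19.4 and 22.8 CPM in control and 34.96, 57.4 and 244 CPM in anemic members. Every anemic mouse lay above every control (2.37 ± 0.45, adjusted p = 0.0213), and the call was lost without control mouse 1, 4 or 5 (highest adjusted p 0.0683). Over all kept cells it had 175 and 473 CPM, and in the members with less hepatocyte and globin RNA its log2 fold change was 1.16 (adjusted p = 0.181). It was the 1 call among 12 tested metallothionein and zinc transporter genes (7 of 12 positive and a median of 0.03).

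The tested genes of the interferon response list were all on one side, with 1 call. Interferons act through a complex that holds STAT2 and binds the interferon-stimulated response element in target promoters. The promoters of Isg15, the called gene, and of Rsad2 and Stat2 are shown because the list's known factors bind there. Each window runs from 250 bases before to 50 bases after the start in RefSeq on GRCm38.p6, 5′ to 3′ on the gene's strand, at chr4:156200769-156201068 (minus), chr12:26456403-26456702 (minus) and chr10:128270248-128270547 (plus), and capitals mark the core GAAANNGAAA, searched on both strands, with overlapping matches joined.
Isg15: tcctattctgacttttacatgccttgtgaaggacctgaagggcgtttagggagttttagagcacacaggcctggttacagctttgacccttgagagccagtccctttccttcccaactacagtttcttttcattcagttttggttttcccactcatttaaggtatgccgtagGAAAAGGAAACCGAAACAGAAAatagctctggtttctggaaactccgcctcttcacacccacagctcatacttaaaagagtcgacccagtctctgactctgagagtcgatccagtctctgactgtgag
Rsad2: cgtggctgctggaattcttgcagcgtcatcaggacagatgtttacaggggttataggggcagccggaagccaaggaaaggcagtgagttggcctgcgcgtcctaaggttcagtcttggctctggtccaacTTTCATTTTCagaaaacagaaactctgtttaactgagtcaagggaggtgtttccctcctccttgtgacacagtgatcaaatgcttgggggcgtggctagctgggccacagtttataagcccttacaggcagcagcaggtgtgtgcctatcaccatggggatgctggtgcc
Stat2: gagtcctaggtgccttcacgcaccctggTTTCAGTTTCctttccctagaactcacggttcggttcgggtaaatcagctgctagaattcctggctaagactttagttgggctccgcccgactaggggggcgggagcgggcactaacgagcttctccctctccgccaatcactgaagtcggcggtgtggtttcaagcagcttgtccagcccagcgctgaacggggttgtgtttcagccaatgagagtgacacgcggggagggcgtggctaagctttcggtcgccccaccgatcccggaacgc
Matches in Isg15 began 78, 72 and 66 bases before the start, that in Rsad2 120 and that in Stat2 222 bases before it. Of 13 tested genes of the list with a window 9 held a match, 69.2%, against 3.99% of 27025 genes. The list was made of known interferon response genes, so this excess describes the list and not the members or PIA. A match describes the letters and is not a measured binding site.

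Of 27 interferon genes 18 were tested, 1 rose, all 18 were positive and the median was 0.50. Isg15, a ubiquitin-like modifier, had 5.56, 12.8 and 32.3 CPM in control and 25.9, 56.5 and 102 CPM in anemic members. In 5 of 6 anemic mice it exceeded every control (1.91 ± 0.36, adjusted p = 0.0213), and it lost the call without control mouse 1, 4 or 5. Rsad2, the antiviral protein viperin, stood at 4.68 ± 4.36 and 19.7 ± 9.73 CPM (2.01 ± 0.48, adjusted p = 0.0661) and Stat2 at 26.7 ± 5.07 and 48.2 ± 21.7 CPM (0.86 ± 0.24, adjusted p = 0.117). Anemic mouse 2 had the highest Stat2, 91.6 CPM, and without that mouse the list median was 0.20 and Isg15 had 1.67 (adjusted p = 0.0311). In the members with less hepatocyte and globin RNA Isg15 had 0.90 (adjusted p = 0.485), and over all kept cells it had 153 and 294 CPM. Iigp1, an interferon-induced gene outside the list, was negative in all members and did not pass the test (adjusted p = 0.759). Its log2 fold change was -1.19 without anemic mouse 2 and 0.33 without the large members.

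Maturation genes gave no call. The late maturity list had 11 of 13 positive and a median of 0.36, or 0.15 without anemic mouse 5, and the early and transitional list 4 of 12 positive and a median of -0.26. Examples near the threshold were named after their values were seen. Myb had 90.5, 101 and 168 CPM in control and 48.5, 65.9 and 91.6 CPM in anemic members (-0.69 ± 0.16, adjusted p = 0.0661), with 5 of 6 anemic mice below every control. Tifa, a signaling adaptor high in pre-B cells, had 177, 215 and 259 CPM in control and 84.4, 122 and 197 CPM in anemic members (-0.72 ± 0.16, adjusted p = 0.0537), also with 5 of 6 below. Bcl2, a factor of the survival list, had 40.8, 52.96 and 68.9 CPM in control and 57.9, 91.1 and 152 CPM in anemic members (0.85 ± 0.20, adjusted p = 0.0695), with 5 of 6 above.

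Among surface genes of maturation, Fcer2a stood at 78.7 ± 25.8 and 100 ± 31.4 CPM (0.36 ± 0.21, adjusted p = 0.508), the chemokine receptors Cxcr5 at 57.6 ± 11.8 and 72.6 ± 15.7 CPM (0.39 ± 0.17, adjusted p = 0.327) and Ccr7 at 365 ± 45.01 and 316 ± 12.8 CPM (-0.18 ± 0.09, adjusted p = 0.407), and the cytokine gene Ltb at 59.7 ± 12.1 and 87.7 ± 16.9 CPM (0.57 ± 0.16, adjusted p = 0.122). Vpreb3 stood at 441 ± 93.5 and 331 ± 73.1 CPM (-0.39 ± 0.14, adjusted p = 0.218) and Cd24a at 393 ± 50.7 and 313 ± 38.9 CPM (-0.29 ± 0.10, adjusted p = 0.202). None passed the test.

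MHC class II genes, which present antigen to T cells, had 14 of 14 positive and a median of 0.30, with 0 called. Ciita, their main activator, had 7.54, 11.7 and 16.3 CPM in control and 14.1, 26.6 and 59.7 CPM in anemic members (1.41 ± 0.34, adjusted p = 0.0690), and 5 of 6 anemic mice exceeded every control. H2-DMb2, a peptide loading factor also on the late maturity list, stood at 134 ± 22.3 and 188 ± 30.99 CPM (0.53 ± 0.13, adjusted p = 0.0695), H2-Aa at 1342 ± 253 and 1804 ± 342 CPM (0.46 ± 0.14, adjusted p = 0.150) and Cd74 at 20774 ± 2677 and 22816 ± 3478 CPM (0.17 ± 0.12, adjusted p = 0.593). MHC class I genes had 13 of 15 positive and a median of 0.25, with 0 called. Anemic mouse 2 carried most of that median, which was 0.02 without it, and B2m, the light chain of class I, reached 1192 CPM in that mouse, beside a highest control value of 844 CPM.

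Without the large members 4 of these genes were called, Ciita with 1.47 (adjusted p = 0.0278), Bcl2 with 0.92 (adjusted p = 0.0279), Tifa with -0.76 (adjusted p = 0.0196) and Myb with -0.67 (adjusted p = 0.0475).

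The receptor and its factors gave no call. Genes of the B cell receptor complex had 11 of 19 positive and a median of 0.00, and Ighm stood at 3009 ± 523 and 2543 ± 139 CPM (-0.21 ± 0.10, adjusted p = 0.368). B lineage transcription factors had 12 of 18 positive and a median of 0.14. Ikzf3, which encodes Aiolos, had 417, 519.8 and 553 CPM in control and 554, 632 and 729 CPM in anemic members without overlap (0.36 ± 0.09, adjusted p = 0.0801).

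The remaining lists are given by the same counts. Homing receptors had 10 of 13 positive and a median of 0.30, survival genes 11 of 18 positive and a median of 0.03, light chain genes 3 of 5 positive and a median of 0.16, B-1 genes 3 of 8 positive and a median of -0.10 and antibody secretion genes 2 of 6 positive and a median of -0.27. Glycolysis had 15 of 17 positive and a median of 0.19, hypoxia targets 12 of 21 positive and a median of 0.08, oxidative phosphorylation 6 of 24 positive and a median of -0.06, cholesterol synthesis 1 of 13 positive and a median of -0.30 and iron and heme handling 7 of 15 positive and a median of 0.00, where Fech was the 1 call. Glucocorticoid response genes had 4 of 14 positive and a median of -0.12, the integrated stress response 8 of 15 positive and a median of 0.02 and immediate early and heat shock genes 10 of 23 positive and a median of -0.03.

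The sign of several list medians depended on the setting. With a mean of at least 50 UMIs required, the median was 0.21 for antibody secretion genes, 0.07 for cholesterol synthesis, 0.08 for B-1 genes, 0.00 for homing receptors and -0.34 for the integrated stress response. It was 0.14 for B-1 genes and -0.23 for the integrated stress response without the large members. The medians near 0 of the receptor complex, survival, immediate early, iron and heme and metallothionein lists also took both signs among the alternatives.

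Markers of other cells outside the erythroid and hepatocyte lists gave no call. Neutrophil genes had 5 of 5 positive and a median of 0.52, macrophage genes 4 of 8 positive and a median of 0.01, T and NK cell genes 0 of 4 positive and a median of -1.63 and endothelial and stellate genes 2 of 7 positive and a median of -1.52. These medians rested on few genes. With the large members left out they were 0.10 for T and NK cell genes and 0.13 for endothelial and stellate genes, and the T and NK median was 0.02 without control mouse 2. In the members with less hepatocyte and globin RNA the neutrophil median was -0.22, and the macrophage median took both signs among the alternatives. The T and NK list summed to 61.2 to 1093 CPM in control and 24.8 to 330.3 CPM in anemic mice. In all, 5 of 27 lists held a called gene, and 12 of the 42 called genes were on a list.

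**Figure D5:**
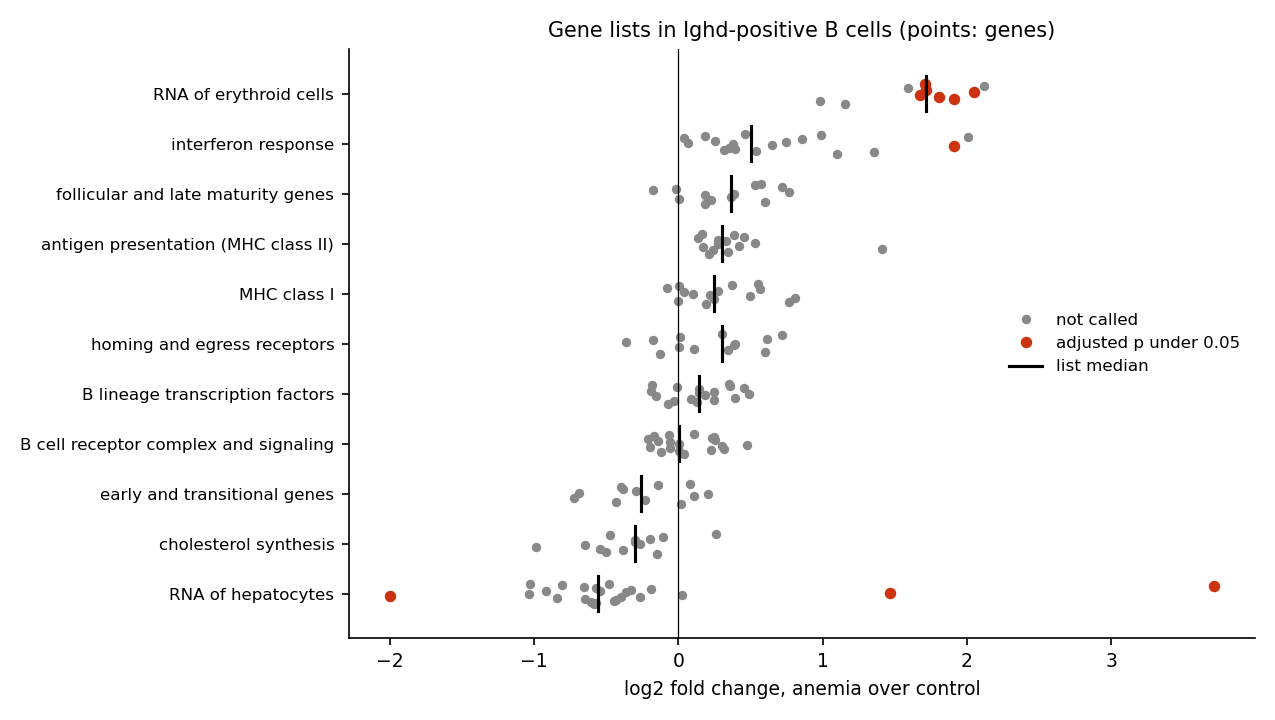
Log2 fold change of anemia over control for the tested genes of selected lists in Ighd-positive B cells, with a point for each gene, called genes in color and a line at each list median. The erythroid list has 6 called genes and the interferon list 1, while the late maturity, MHC class II and early lists have 0.

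The third question was whether the members responded to PIA differently from other lymphocytes of the same livers, fitted with the mouse as a term. Against Rag-positive pre-B cells, 51 to 269 per mouse, the effect differed in 4 of 6927 genes, 0.0577%. These pre-B cells could hold surrogate light chain UMIs, and Igll1 stood there at 866 ± 218 and 1123 ± 356 CPM in control and anemic mice. A shift in their make-up was not tested. Eno1, a glycolytic enzyme, stood at 168 ± 15.8 and 182 ± 15.2 CPM in control and anemic members and at 128 ± 18.02 and 232 ± 28.4 CPM in pre-B cells, where it rose by 0.84 (adjusted p = 0.00355). The difference in log2 fold change was -0.72 ± 0.14, adjusted p = 0.0297 (edgeR). H1f0, a linker histone, differed by -1.27 ± 0.25, adjusted p = 0.0297, Cald1 by -2.25 ± 0.41, adjusted p = 0.0220 and Iigp1, an interferon-induced GTPase, by -2.65 ± 0.47, adjusted p = 0.0220. In pre-B cells alone these 3 had 0.72 (adjusted p = 0.242), 0.67 (adjusted p = 0.662) and 1.94 (adjusted p = 0.367), and H1f0 and Iigp1 did not pass the test in members, with -0.53 and -0.45. Iigp1 in members had 0.33 (adjusted p = 0.859) without the large members and -1.19 (adjusted p = 0.187) without anemic mouse 2. For the difference from pre-B cells DESeq2 called 0 genes, with 208 at an unadjusted p under 0.05. EdgeR called 0 without control mouse 1 or 4 or anemic mouse 2 or 3, with 399 to 433 genes at an unadjusted p under 0.05, 1 without anemic mouse 4 or 5 and 2 without control 3 or 5.

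Against T cells the effect differed in 4 of 8349 genes, 0.0479%. Isg15 stood at 136 ± 32.4 and 154 ± 89.5 CPM in control and anemic T cells, above the members in both groups, and the members' log2 fold change was larger by 1.80 ± 0.26, adjusted p = 0.00260. Cd24a differed by -1.40 ± 0.27, adjusted p = 0.0431, where it rose in T cells from 18.3 ± 6.25 to 40.3 ± 13.7 CPM, by 1.13 (adjusted p = 0.0170), and did not pass the test in members. Meg3 differed by -5.38 ± 0.82, adjusted p = 0.00301 and Adamtsl1 by -6.60 ± 1.19, adjusted p = 0.0266, where 154 of 159 control Adamtsl1 UMIs lay in large members. EdgeR called 1 gene without anemic mouse 5, 2 without control 3, 5 or 6 or anemic mouse 1, and 16 without anemic mouse 6.

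The Ighd-negative resting B cells, 17979 in all, are set beside the members without a test of the difference. Log2 fold changes there were 0.50 (adjusted p = 0.0374) for Ccnd3, 0.43 (adjusted p = 0.0286) for Apobec3 and 0.54 (adjusted p = 0.00577) for Jak2. Ciita had 1.06 (adjusted p = 0.0149), H2-DMb2 0.58 (adjusted p = 0.0369) and Ikzf3 0.32 (adjusted p = 0.0419). Cd200 had 0.82 (adjusted p = 0.140), Hvcn1 0.42 (adjusted p = 0.121) and Sesn1 0.20 (adjusted p = 0.283). Of genes that fell in the members, Oser1 had -0.51 (adjusted p = 0.00652), Marcksl1 -0.50 (adjusted p = 0.0257), Tuba1a -0.42 (adjusted p = 0.0425), Klf4 -0.59 (adjusted p = 0.00315), Gsta3 -1.52 (adjusted p = 0.0100) and Cyp2e1 -2.16 (adjusted p = 0.000367), so these fell there too. Tuba1c had -0.23 (adjusted p = 0.363), H2afz -0.35 (adjusted p = 0.113), Dstn -0.24 (adjusted p = 0.202), S100a11 -0.11 (adjusted p = 0.582) and Vim -0.13 (adjusted p = 0.482), which did not pass the test there. Apoa1 and Ttr had -1.42 (adjusted p = 0.0260) and -1.28 (adjusted p = 0.0395). Jchain, which did not pass the test in the members, had -6.68 (adjusted p = 0.00438) in the Ighd-negative cells. It stood there at 195 ± 185 and 1.59 ± 2.12 CPM in control and anemic mice (SD), so the control SD was near the control mean. Among the members 1 cell held 338 of the 346 control Jchain UMIs. The number of Ighd-negative cells that held the Jchain UMIs is not given, and whether a few secreting cells carried this fall was not tested.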

How the data were processed

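Each dissociated liver gave 1 droplet 3′ library. The deposited matrices hold raw UMI counts per gene and barcode, which the authors made with Cell Ranger 7.0.0, per the file headers, on mm10, per the labels. The labels and the study's methods name different kit versions. No doublet caller was run here; members above 3 times their mouse's median UMI count were left out as an alternative.

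Members were selected on raw counts. The members and the gene lists were chosen with earlier results of these data known. Counts were summed per mouse and tested with edgeR 4.0.16 (quasi-likelihood, TMM) in R 4.3.3 on genes averaging 5 or more UMIs per mouse, without mitochondrial, ribosomal protein and the 14 rule genes. CPM values divide by all member UMIs and fold changes use TMM-scaled libraries. Differences between cell sets were tested as interactions with the mouse as a term. Per-mouse shares were compared with exact two-sided Mann-Whitney tests (scipy 1.17.1). DESeq2 1.42.0, limma 3.58.1, other filters, normalizations and cell limits, and leaving out each mouse were alternatives, and the test was checked on simulated counts.

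The genes named are the rule genes, genes the study names for B cells, up to 12 per direction with the largest fold change among called genes with at least 20 CPM and no overlap (11 higher and 10 lower), called genes of the lists and the 4 most abundant genes of each list. Other genes, among them further called genes, those of the interactions and markers shown for their levels, were chosen after their values were seen. Some genes that the rule names are not reported here. The p-values measure the spread between mice, 1 library each.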

Additional observations from a re-analysis of the deposited data

Results flagged for a closer look

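In 114 checks of groups of 6 mice for a single mouse far from the rest, chance flags about 1 in 20 groups. Control mouse 5 stood apart in the lambda percentage (13.3%), in Jchain (545 CPM), in Ighm (4020 CPM) and in Myb (168 CPM). Its Jchain value rests on 1 cell, which also held 2351 of its 5972 Igkc and 758 Ighm UMIs. Anemic mouse 5 stood apart in Hvcn1 (220 CPM) and Sesn1 (225 CPM), and anemic mouse 2 in Stat2 (91.6 CPM). Single values far from their group were also those of Serpina3k in control mouse 4 (3.77 CPM), Cd200 in control 2 (5.38 CPM), Dstn in control 3 (123 CPM), Iglc1 in control 3 (684 CPM) and Rsad2 in anemic mouse 6 (38.2 CPM).

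The anemia effect in the members differed from that in Rag-positive pre-B cells, by edgeR's interaction test, for Iigp1 (-2.65 on the log2 scale), Cald1 (-2.25), H1f0 (-1.27) and Eno1 (-0.722). It differed from that in T cells for Isg15 (1.8), Meg3 (-5.38), Adamtsl1 (-6.6) and Cd24a (-1.4). Large members held 58 of 103 control UMIs of Iigp1, 108 of 167 of Cald1, 80 of 96 of Meg3 and 154 of 159 of Adamtsl1, and their part in these differences was not tested.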

How the results depend on the processing

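With at least 2 Ighd UMIs required, the share among kept cells changed direction, to 0.145 percentage points higher in PIA (adjusted exact p = 0.0931), the B-lineage share difference fell to 2.57 points, 2.09% against 4.66% (adjusted exact p = 0.0173), the lambda difference was 4.91 points (adjusted exact p = 0.0931), and the log2 fold changes of Cd24a and Cd74 became 0.18 and -0.013. That of Iigp1 became 0.33 without the large members. Leaving out each mouse gave B-lineage share differences of 4.45 to 6.60 points, 4.45 to 5.97 in the fits past an adjusted exact p of 0.05, and lambda differences of 4.97 to 7.11 points, 4.97 to 6.67 in such fits. The mice share only replicate numbers: same-number correlations of deviations were 0.22, -0.12, -0.07, 0.11, 0.08 and 0.02. With these numbers as a replicate block the B-lineage difference was 5.58 and the lambda difference 6.18 points (both adjusted exact p = 0.125), and 81 genes were called. Before adjustment an exact paired test of 6 pairs cannot go below 0.03125. Between mice of the same number the B-lineage share was higher in PIA in every pair, and the lambda percentage in every pair but number 4.

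In place of 42 calls in the members, DESeq2 gave 95 (27 shared), no filter on low counts 311, Y-linked expression as a covariate 27, at least 2 Ighd UMIs 13, no large members 75, less hepatocyte and globin RNA 26, and leaving out each mouse 5 to 86. In place of 4 against pre-B cells, DESeq2 gave 0, no filter 27, a mean of at least 50 UMIs 1, and leaving out each mouse 0 to 5. In place of 4 against T cells, limma gave 1, no filter 113, a mean of at least 50 UMIs 0 (268 at an unadjusted p under 0.05), and leaving out each mouse 1 to 16. The cause was not tested. At a median of 1265 to 1817 UMIs per member, a gene without a UMI in a cell may still be expressed there.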
